A study of Homo sapiens with 40 samples.

Results

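The genes described here encode the subunits of RNA polymerases I, II and III, taken as all protein-coding genes whose symbol begins POLR1, POLR2 or POLR3. The rule gave 33 members among the 63152 Ensembl genes counted, and 30 of them passed the filter on low counts among 12557 genes tested. By the enzyme they belong to, 6 are found in polymerase I only, 10 in polymerase II only, 10 in polymerase III only, 2 in polymerases I and III, and 5 in all 3 polymerases. POLR2J2, POLR2J3 and POLR2H, the members that did not pass, are listed at 0 in all 40 libraries. The cells were of the human osteosarcoma line U2OS. They carried a TetOn system that expresses MYC when doxycycline (Dox) is present, and a pGIPZ vector with a short hairpin RNA. The hairpins were shCTR9 hairpins 3 and 5, shCDC73 hairpins 3 and 4, and shNTC, a control hairpin. All cells were selected in puromycin at 0.2 µg/ml. Treatment lasted 24 h, with either 1 µg/ml of Dox or ethanol (EtOH), so 10 groups of 4 libraries, 40 libraries of total RNA, were compared. The PAF1 complex, to which CTR9 and CDC73 belong, accompanies RNA polymerase II during elongation, and MYC is a transcription factor that drives growth genes. The labels do not say whether the 4 libraries of a group came from separate cultures, so p-values measure the spread between libraries, which may be technical.

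Polymerase I makes the large ribosomal RNAs in the nucleolus, polymerase II makes messenger RNA, and polymerase III makes transfer RNA, the small ribosomal RNA and other short RNAs. Each enzyme has its own large catalytic subunits, POLR1A and POLR1B, POLR2A and POLR2B, or POLR3A and POLR3B. A group of small subunits is built into every polymerase, and POLR1C and POLR1D are built into polymerases I and III, where they form the assembly platform that POLR2C and POLR2J form in polymerase II. Around the core sit a stalk and, in polymerases I and III, pairs of subunits that resemble the general initiation factors of polymerase II. MYC is known to raise the output of polymerases I and III in growing cells.

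Depth per library was 877323 to 1532617 counts (median 1213230.5), and the members held between 0.3% and 0.442% of the reads. Levels are in CPM (counts scaled to library size), on which a count of 3 equals 1.96 to 3.42 CPM. MYC averaged 8292 to 14945 CPM in the 5 Dox groups, against 509 to 677 CPM in the 5 EtOH groups. CTR9 was lower in shCTR9 than in shNTC cells by a log2 fold change of -1.87 in EtOH and -1.99 in Dox, and CDC73 was lower in shCDC73 cells by -2.12 and -1.87. CTR9 was higher in shCDC73 than in shNTC cells, by 1.18 in EtOH and 0.92 in Dox. Of the osteoblast and mesenchymal markers 5 of 9 were tested and summed to 786 to 1996 CPM per library, with BGLAP at 0 in all libraries; the epithelial markers (3 of 5 tested) summed to 182 to 481 CPM and the blood markers (0 of 5 tested) to at most 2.23 CPM, with HBB at 0. With Dox 3 of the 5 mesenchymal markers fell in shCTR9 cells, 4 in shCDC73 cells and 3 in shNTC cells, and 0 rose; in shNTC cells the log2 fold changes were -0.82 for COL1A1, -0.70 for VIM and -0.62 for SPARC, beside -0.62 for the epithelial marker KRT8. Against shNTC, RUNX2 rose by 1.67 to 2.05 and the epithelial marker KRT18 by 0.41 to 0.68 over the 4 comparisons of knockdown and treatment, and SPARC and CDH2 fell in each. The part of these shifts in the results on the subunits was not tested. Short transcripts were read more, relative to long ones, in EtOH shCTR9 hairpin 3 replicate 1 and in EtOH shCDC73 hairpin 4 replicates 1 and 3, where the slope of a library's deviations on log2 transcript length was -0.163, -0.0889 and -0.142. Dox shCDC73 hairpin 3 replicate 1 had a slope close to these, -0.0834, and is not counted among them. The deviations are from group means, so a bias common to a whole group would not show. Put into a model, the slope therefore does not correct a bias between groups. Where leaving out the 3 EtOH libraries rich in short transcripts ended a call on a member, the value without them is given. A comparison that does not hold these libraries changes without them only through estimates shared by all groups, such as the spread.

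Levels between subunits were compared per kilobase of the longest annotated transcript, in EtOH shNTC cells. Whether the cells use that transcript was not tested, and the SD between libraries does not cover this, so the order of genes depends on it. POLR2B, the second largest subunit of polymerase II, was the most abundant at 124 ± 5.22 CPM per kb (SD, n = 4). The small common subunits POLR2L and POLR2K followed at 93.6 ± 12.8 and 88.4 ± 14.1 CPM per kb, and POLR1E, a subunit of polymerase I that resembles a part of TFIIF, at 86 ± 7.48 CPM per kb. Those 3 levels differed by less than the SD of POLR2L or POLR2K. The largest subunits stood in the order POLR2A with 36.2 ± 7.34, POLR1A with 20.2 ± 1.32 and POLR3A with 18.7 ± 1.34 CPM per kb. The ranges of mean ± SD of POLR1A and POLR3A overlapped, and their difference was not tested. The lengths used for POLR1A and POLR3A were 12.7 and 6.64 kb. Without scaling to length their medians over the 40 libraries were 222 and 151 CPM. At the low end were POLR1G and POLR1H, each at 2.51 CPM per kb, POLR3GL at 3.53 and POLR3B, the second largest subunit of polymerase III, at 4.28 CPM per kb. POLR3A and POLR3B, like POLR2A and POLR2B, are partners in 1 enzyme whose levels per kilobase differed beyond their spread.

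Summed over their subunit genes, the 3 polymerases differed in how their levels moved with Dox across the hairpins. The 6 genes of polymerase I only summed to 923 to 1058 CPM in the 20 Dox libraries, against 733 to 911 CPM in the 20 EtOH libraries, so that every Dox library lay above every EtOH library whatever the hairpin. The 10 genes of polymerase III only summed to 622 to 832 CPM in Dox, against 532 to 694 CPM in EtOH, and the treatments overlapped over all hairpins but in none of the 5 hairpins taken alone. The highest of these sums were those of Dox shNTC cells, at 822 ± 9.38 CPM, against 613 ± 15.8 CPM in EtOH shNTC cells (SD, n = 4 each). The 8 tested genes of polymerase II only summed to 1249 ± 50.3 CPM in Dox shNTC and 1127 ± 29.8 CPM in EtOH shNTC cells, which did not overlap. In the knockdowns the polymerase II sum overlapped between treatments except in shCDC73 hairpin 4, at 1364 to 1458 CPM in Dox and 1006 to 1336 CPM in EtOH. In Dox every knockdown library was above every shNTC library, with 1750 ± 93.2 CPM in shCTR9 hairpin 3 against 1249 ± 50.3 CPM in shNTC. In EtOH shCTR9 hairpin 5 and shCDC73 hairpin 3 lay above shNTC, while shCTR9 hairpin 3 (lowest 1127 CPM) and shCDC73 hairpin 4 (1156 ± 170 CPM) overlapped with it. A sum follows its most abundant genes, and POLR2B and POLR2A made up 54.8% to 82.2% of the polymerase II sum, POLR1E and POLR1B 42% to 57% of the polymerase I sum, and POLR3A and POLR3D 32.7% to 44.9% of the polymerase III sum.

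**Figure D1:**
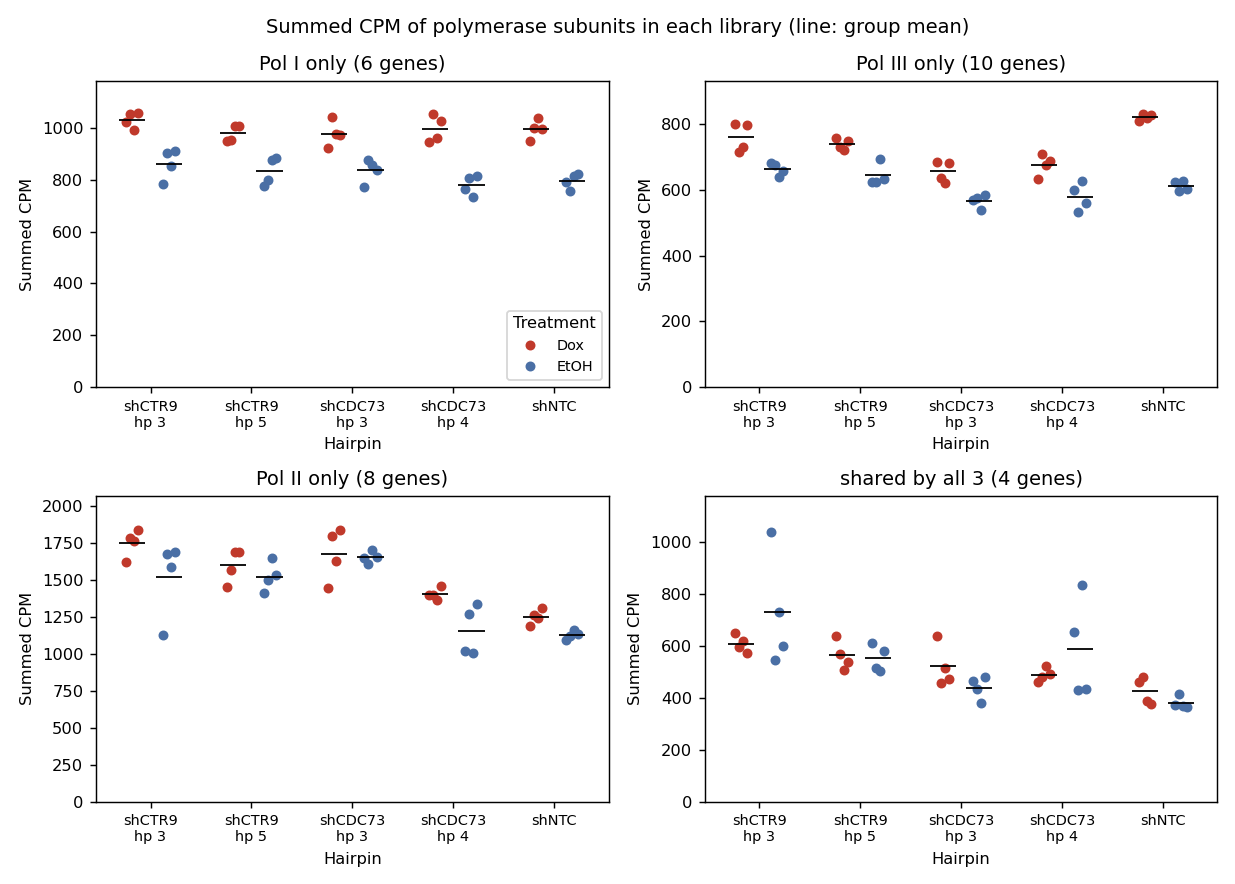
Summed level (CPM) of the subunit genes of each class in every library, with 4 libraries per group, for polymerase I only (6 genes), polymerase III only (10 genes), polymerase II only (8 genes) and the genes shared by all 3 (4 genes). For polymerase I every Dox library, at 923 CPM or more, lies above every EtOH library, at 911 CPM or less, while the polymerase II sums are set apart by hairpin as well.

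The response of control cells to Dox, which induces MYC, was examined by comparing Dox with EtOH in shNTC cells. All cells carried the MYC system, so an effect of Dox itself and that of MYC cannot be told apart. Of the 30 members tested 10 rose and 0 fell, beside 8.49% of all genes tested that rose and 8.93% that fell. The median log2 fold change of the members was 0.26, against -0.01 over all genes, and 26 of 30 members were above 0. By class, 3 of 6 genes of polymerase I only rose (median 0.49), 2 of 2 shared by polymerases I and III (0.54), 3 of 10 of polymerase III only (0.30), 1 of 8 of polymerase II only (0.15) and 1 of 4 shared by all 3 (0.10). Genes were called where q, the p of edgeR's quasi-likelihood test after Benjamini-Hochberg adjustment over all genes tested, was below 0.05, and changes are log2 fold changes ± their standard error. With each library's slope on transcript length in the model, POLR2G was called downward (-0.46, q = 0.0333). POLR1F, POLR2D and POLR2J were then called upward (q = 0.0188, 0.037 and 0.0324). The groups did not overlap for 14 members, among them all 10 that rose, beside 22.7% of all genes tested whose groups did not overlap. CPM values are shares of a library, so a change in the RNA of a gene per cell and a change in the number of cells or in the other RNA of a cell cannot be told apart.

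Within polymerase I, POLR1B, the second largest subunit, had 252, 278, 286 and 283 CPM in Dox shNTC libraries, against 167, 185, 183 and 190 CPM in EtOH shNTC libraries. Every Dox library was above every EtOH library, and the change was 0.60 ± 0.12 (q = 0.000282). POLR1G and POLR1E form a pair of TFIIF-like subunits outside the core, and both rose. POLR1G had 17.3, 10.6, 21.5 and 21.3 CPM in Dox shNTC cells and 7.6, 7.66, 8.54 and 9.23 CPM in EtOH shNTC cells, from 87 and 43 reads in all. Its groups lay apart although Dox replicate 2 came close to the EtOH libraries, and its change of 1.08 ± 0.24 was the largest among the members (q = 0.00113). POLR1E, far more abundant, had 265, 247, 263 and 234 CPM in Dox shNTC cells and 194, 181, 214 and 177 CPM in EtOH shNTC cells, a change of 0.39 ± 0.09 (q = 0.00143). The largest subunit POLR1A had 223, 282, 277 and 275 CPM in Dox shNTC cells and 246, 243, 263 and 279 CPM in EtOH shNTC cells, which overlapped (0.03 ± 0.19, q = 0.941). The stalk subunit POLR1F (0.24 ± 0.11, q = 0.148) and the RNA-cleavage subunit POLR1H (0.59 ± 0.33, q = 0.242) did not pass the test. POLR1F was called with only the groups compared in the model (q = 0.035) and without the 3 libraries rich in short transcripts (q = 0.0304).

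The assembly platform shared by polymerases I and III rose as a pair. POLR1C had 77.6, 70.8, 61.6 and 66.9 CPM in Dox shNTC cells, against 52.3, 43.7, 36.8 and 51.2 CPM in EtOH shNTC cells, with no overlap (0.61 ± 0.16, q = 0.00397). POLR1D had 121, 106, 117 and 98.4 CPM in Dox shNTC cells and 92, 83.5, 72.9 and 72.1 CPM in EtOH shNTC cells, again without overlap (0.47 ± 0.15, q = 0.0203). The call on POLR1D was lost without Dox replicate 1 or 3 or EtOH replicate 3 or 4, at q of 0.0546 to 0.0776.

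In polymerase III the genes that rose were the largest subunit, one subunit of the TFIIF-like pair and an initiation subunit. POLR3A, the largest subunit, had 163, 167, 188 and 177 CPM in Dox shNTC cells and 125, 113, 125 and 134 CPM in EtOH shNTC cells, which lay apart (0.48 ± 0.10, q = 0.000351). POLR3D had 169, 172, 180 and 157 CPM in Dox shNTC cells, against 108, 105, 104 and 111 CPM in EtOH shNTC cells, and was the member with the smallest p (0.66 ± 0.11, q = 7.17e-06). Its partner POLR3E gave 0.13 ± 0.14 (q = 0.605). POLR3G, the form of an initiation subunit known from stem and proliferating cells, had 115, 131, 123 and 153 CPM in Dox shNTC cells and 86.9, 75, 85.4 and 87.2 CPM in EtOH shNTC cells, without overlap (0.64 ± 0.12, q = 9.69e-05). Its widely expressed paralogue POLR3GL, read only 21 and 29 times over the 4 Dox and 4 EtOH shNTC libraries, gave -0.39 ± 0.44 (q = 0.615). The second largest subunit POLR3B, whose log2 fold change was 0.15 ± 0.27, also did not pass (q = 0.776).

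Polymerase II gave 1 call, on the assembly platform subunit POLR2C, with 124, 126, 132 and 126 CPM in Dox shNTC cells and 106, 101, 106 and 88.1 CPM in EtOH shNTC cells (0.34 ± 0.12, q = 0.036). Its groups lay apart, but the call was lost without Dox replicate 1, 2, 3 or 4 or EtOH replicate 2, 3 or 4, at q of 0.0509 to 0.113. The catalytic subunits did not pass, with 0.16 ± 0.25 for POLR2A (q = 0.739) and 0.15 ± 0.10 for POLR2B (q = 0.366). Among the subunits common to all 3 polymerases, POLR2F had 69, 86.3, 84 and 63 CPM in Dox shNTC cells and 42.2, 47.5, 49.9 and 58.7 CPM in EtOH shNTC cells (0.60 ± 0.21, q = 0.045). That call was lost without Dox replicate 1, 2 or 3 or EtOH replicate 1, 2 or 3, at q of 0.0588 to 0.129. POLR2E, POLR2K and POLR2L gave log2 fold changes of 0.07 to 0.10, none of which passed.

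**Figure D2:**
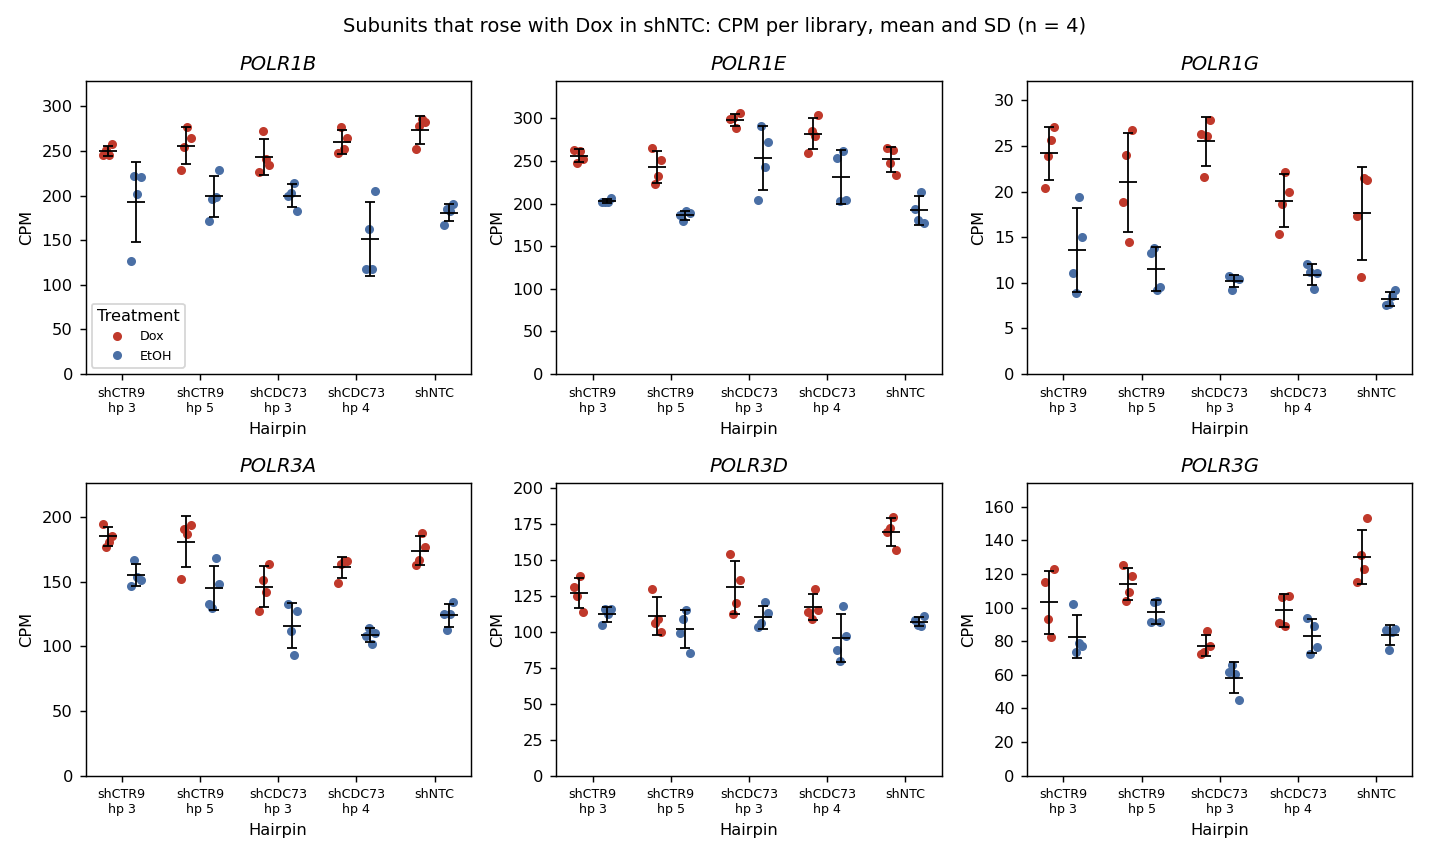
Level (CPM) of POLR1B, POLR1E, POLR1G, POLR3A, POLR3D and POLR3G in each library of the 10 groups, Dox beside EtOH for each hairpin. In shNTC cells the Dox libraries lie above the EtOH libraries for each of the 6 genes, and POLR3D in the knockdown cells stays at 154 CPM or less in Dox, below the 157 to 180 CPM of Dox shNTC.

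The promoters of POLR1G and POLR3A, which rose with Dox in shNTC cells, are shown because each holds CACGTG, the hexamer that MYC with MAX is known to bind. The 250 bases before the annotated start are given 5′ to 3′ on the gene's strand, from RefSeq on GRCh38.p14, at chr19:45406394-45406643 on the plus strand for POLR1G and chr10:78029516-78029765 on the minus strand for POLR3A, with the hexamer in capitals.
POLR1G: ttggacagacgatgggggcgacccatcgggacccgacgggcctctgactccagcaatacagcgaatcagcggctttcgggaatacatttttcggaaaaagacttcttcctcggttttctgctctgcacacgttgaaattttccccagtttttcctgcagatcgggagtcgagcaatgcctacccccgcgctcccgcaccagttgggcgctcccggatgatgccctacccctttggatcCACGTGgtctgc
POLR3A: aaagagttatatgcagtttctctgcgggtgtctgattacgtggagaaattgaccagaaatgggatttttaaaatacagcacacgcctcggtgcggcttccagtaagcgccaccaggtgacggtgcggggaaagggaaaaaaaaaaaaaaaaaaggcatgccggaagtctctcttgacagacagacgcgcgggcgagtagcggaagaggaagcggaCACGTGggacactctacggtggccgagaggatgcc
The first base of the hexamer lies 12 bases before the start in POLR1G and 35 before it in POLR3A. CACGTG reads the same on both strands. RefSeq windows of 250 bases before to 50 after the start were matched for 24 members, and 4 of them, POLR1G, POLR3A, POLR3C and POLR3E, held the hexamer, which is 16.7%. Of 8946 tested genes with such a window 12.9% held it, and of all 27305 genes 8.77%. Among the members that rose with Dox in shNTC cells it was in 2 of 7 windows, and among the other tested members in 2 of 15. These are matches of letters within the window and no measure of binding.

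The same comparison was made in each knockdown, averaging its hairpins, and within each hairpin. In shCTR9 cells 5 of 30 members rose with Dox and 0 fell, beside 9.29% and 9.05% of all genes. In shCDC73 cells 8 rose and 0 fell, beside 9.29% and 8.24% of all genes. Dox and EtOH libraries did not overlap for 2 members in each knockdown, beside 3.43% of all genes in shCTR9 and 1.7% in shCDC73 cells. With each library's slope on transcript length in the model, 13 members were called in each knockdown, beside 29% of all genes in shCTR9 and 28.1% in shCDC73 cells in either direction, and in shCTR9 cells POLR2K and POLR2L were then called downward (-0.19 each, q = 0.0147 and 0.00544). The medians were 0.14 in shCTR9 and 0.16 in shCDC73 cells, against -0.02 over all genes in each. POLR1B, POLR1E, POLR1G, POLR3A and POLR3G rose in both knockdowns, and POLR1C, POLR3D and POLR2B, the second largest subunit of polymerase II, also rose in shCDC73 cells. No libraries are shared between these comparisons and the one in shNTC cells.

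POLR1G had 20.4, 23.9, 25.7 and 27.1 CPM in Dox shCTR9 hairpin 3, against 11.1, 8.9, 19.4 and 15 CPM in EtOH, and 18.9, 24, 14.5 and 26.8 CPM in Dox shCTR9 hairpin 5, against 13.3, 13.8, 9.2 and 9.56 CPM in EtOH. In shCDC73 hairpin 3 it had 26.3, 21.6, 26.1 and 27.8 CPM in Dox and 10.7, 9.16, 10.5 and 10.4 CPM in EtOH, and in hairpin 4 it had 15.3, 18.6, 22.2 and 20 CPM in Dox and 12.1, 11.2, 9.33 and 11.1 CPM in EtOH. Dox and EtOH libraries lay apart in each of these hairpins. POLR1G was called in all 5 hairpins, and the share of all genes called in all 5 was not counted. Its changes were 0.86 (q = 0.00658) and 0.88 (q = 0.00881) in shCTR9 hairpins 3 and 5, and 1.31 (q = 6.54e-05) and 0.77 (q = 0.0212) in shCDC73 hairpins 3 and 4. In shCTR9 hairpin 3 the call was lost with only the groups compared (q = 0.0647) and without replicate 2 or 4 of every group (q = 0.0779 and 0.0529), and in shCTR9 hairpin 5 without Dox replicate 4 (q = 0.068) or replicate 4 of every group (q = 0.214). In shCDC73 hairpin 4 it was lost without Dox replicate 3 or 4 or EtOH replicate 3 (q of 0.0584 to 0.0672), without the 3 libraries rich in short transcripts (q = 0.1), without replicate 2, 3 or 4 of every group (q of 0.0548 to 0.155), with only the groups compared (q = 0.0656), under DESeq2 (q = 0.0512) and with no filter on low counts (q = 0.0742). Averaged over hairpins it held in every alternative, at 0.87 ± 0.16 in shCTR9 (q = 3.82e-05) and 1.04 ± 0.16 in shCDC73 cells (q = 3.49e-06).

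POLR1E changed by 0.36 ± 0.06 in shCTR9 (q = 3.97e-05) and 0.27 ± 0.06 in shCDC73 cells (q = 0.0018). In shCTR9 cells its Dox libraries had 263, 247, 262 and 252 CPM in hairpin 3 and 265, 223, 232 and 251 CPM in hairpin 5, against 202, 202, 202 and 206 CPM and 186, 179, 191 and 189 CPM in EtOH, with no overlap. POLR1B changed by 0.37 ± 0.09 in shCTR9 (q = 0.00143) and 0.53 ± 0.09 in shCDC73 cells (q = 8.45e-06), and its Dox libraries lay above its EtOH libraries in both knockdowns. POLR1B had 127 CPM in EtOH shCTR9 hairpin 3 replicate 1 and 118 CPM in EtOH shCDC73 hairpin 4 replicates 1 and 3, the 3 libraries rich in short transcripts. With shCTR9 hairpin 5 alone its call was lost (q = 0.0582), and likewise with shCDC73 hairpin 3 alone (q = 0.158).

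POLR3A changed by 0.29 ± 0.07 in shCTR9 (q = 0.00182) and 0.45 ± 0.07 in shCDC73 cells (q = 6.47e-06), and treatments overlapped in both. POLR3G changed by 0.28 ± 0.09 in shCTR9 (q = 0.0176) and 0.33 ± 0.09 in shCDC73 cells (q = 0.00831). Without Dox shCTR9 hairpin 3 replicate 4 the shCTR9 value was no longer called (q = 0.0558). POLR3D changed by 0.27 ± 0.08 in shCDC73 cells (q = 0.0113), and in shCTR9 cells it gave 0.15 ± 0.08 (q = 0.176). POLR1C, of the platform of polymerases I and III, changed by 0.33 ± 0.10 in shCDC73 cells (q = 0.0135). POLR2B changed there by 0.23 ± 0.07 (q = 0.0247), a call lost without Dox shCDC73 hairpin 3 replicate 2 or 4, Dox hairpin 4 replicate 1, EtOH hairpin 3 replicate 2 or EtOH hairpin 4 replicate 3 (q of 0.0502 to 0.0792), or without the 3 libraries rich in short transcripts (q = 0.0828). With a single hairpin the calls on POLR3A in shCTR9 cells (hairpin 3, q = 0.0987), on POLR3G in both knockdowns and on POLR1C, POLR1E and POLR3D in shCDC73 cells were also lost (q of 0.0618 to 0.287). The POLR2B call was lost with shCDC73 hairpin 3 alone (q = 0.742).

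Within single hairpins, 3 members rose in shCTR9 hairpin 3 (beside 5.06% of all genes), 3 in shCTR9 hairpin 5 (3.85%), 2 in shCDC73 hairpin 3 (3.86%) and 5 in shCDC73 hairpin 4 (7.06%). Besides POLR1G these were POLR1B and POLR1E in shCTR9 hairpin 3, POLR1E and POLR3A in shCTR9 hairpin 5, POLR3A in shCDC73 hairpin 3, and POLR1B, POLR1E, POLR2B and POLR3A in shCDC73 hairpin 4. POLR1B, at 0.78 ± 0.12 in shCDC73 hairpin 4, had the largest change there (q = 1.13e-05), and its call there held in every alternative. The POLR1B call in shCTR9 hairpin 3 was lost without any 1 of the Dox replicates or EtOH replicate 1 or 3 (q of 0.0647 to 0.281) and without the 3 libraries rich in short transcripts (q = 0.111). The POLR3A calls were lost in shCTR9 hairpin 5 without Dox replicate 2, 3 or 4 or EtOH replicate 1 or 2 (q of 0.0692 to 0.14), and in shCDC73 hairpin 3 without Dox replicate 2, 3 or 4 or EtOH replicate 2 or 3 (q of 0.0591 to 0.202). In shCDC73 hairpin 4 the POLR1E call was lost without Dox replicate 2 or 4 or EtOH replicate 2 or 4 (q of 0.0519 to 0.0903), and the POLR2B call without EtOH replicate 3 (q = 0.0935) and without the 3 libraries rich in short transcripts (q = 0.195). Leaving out Dox shCTR9 hairpin 5 replicate 4 brought the count in shCTR9 hairpin 5 to 1. Leaving out Dox shCDC73 hairpin 3 replicate 3 or 4 or EtOH replicate 3 brought that of shCDC73 hairpin 3 to 1, and leaving out Dox shCDC73 hairpin 4 replicate 4 brought that of hairpin 4 to 3.

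**Figure D3:**
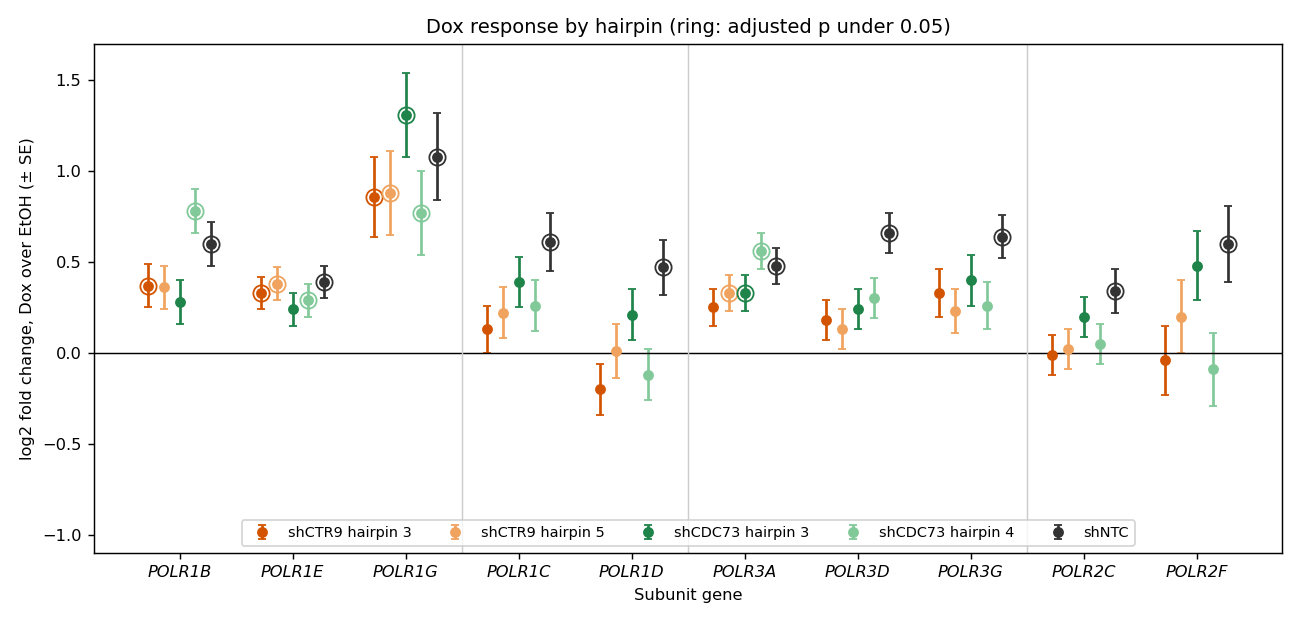
Log2 fold change of Dox over EtOH (± SE) in each of the 5 hairpins for the 10 members that rose in shNTC cells, with rings around called values. POLR1G is ringed in all 5 hairpins, and POLR3D, at 0.66 in shNTC, lies between 0.13 and 0.30 in the knockdown hairpins.

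Whether a knockdown changed the response to Dox was tested as the difference between its Dox change and that of shNTC cells. POLR3D came nearest to the threshold. Its Dox libraries had 131, 125, 139 and 114 CPM in shCTR9 hairpin 3 and 130, 106, 109 and 99.8 CPM in shCTR9 hairpin 5, against 169, 172, 180 and 157 CPM in shNTC, so every Dox shCTR9 library was below every Dox shNTC library. In EtOH the medians were 111 CPM in shCTR9 and 104 CPM in shCDC73 cells, and the shNTC libraries had 108, 105, 104 and 111 CPM. The difference of response was -0.51 ± 0.13 in shCTR9 (unadjusted p = 0.000328, q = 0.0507 by edgeR) and -0.39 ± 0.13 in shCDC73 cells (unadjusted p = 0.00452, q = 0.229). POLR1D, with -0.56 ± 0.18 in shCTR9 cells (q = 0.177) and -0.42 ± 0.18 in shCDC73 cells (q = 0.415), and POLR3G, with -0.36 ± 0.15 in shCTR9 cells (q = 0.34), did not pass.

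By edgeR 0 of 30 members passed in either knockdown, beside 0.597% of all genes in shCTR9 and 0.47% in shCDC73 cells. At an unadjusted p under 0.05 there were 7 members in shCTR9, each with a negative difference, beside 10.5% of all genes, and 4 in shCDC73 cells, beside 9.41% of all genes. DESeq2 called 1 member in shCTR9, POLR3D (q = 0.048), and 0 in shCDC73 cells. POLR3D in shCTR9 cells was also called without Dox shCTR9 hairpin 5 replicate 1, EtOH shCTR9 hairpin 3 replicate 1 or EtOH shCTR9 hairpin 5 replicate 4 (q = 0.0313, 0.0392 and 0.0359), with only the groups compared (q = 0.0397) and without the 3 libraries rich in short transcripts (q = 0.0083). With the transcript-length slope as a covariate POLR3D (q = 0.00187) and POLR1D (q = 0.00273) were called in shCTR9 and likewise in shCDC73 cells (q = 0.0339 and 0.0433), beside 3.62% and 2.91% of all genes. The difference of response of POLR3D in shCTR9 was -0.51 with this covariate as without it. The covariate holds only deviations within groups, so these q are no correction of a length bias between groups. MYC itself was lower in Dox-treated knockdown cells than in Dox-treated shNTC cells, with log2 fold changes of -0.52 in shCTR9 and -0.66 in shCDC73. In EtOH it was higher than in shNTC cells, by 0.26 in shCTR9 (q = 0.00107) and 0.22 in shCDC73 (q = 0.00593). The second of these was lost without EtOH shNTC replicate 3 or 4 (q of 0.0598 to 0.0673). The difference of response of MYC was -0.78 in shCTR9 (q = 3.13e-07) and -0.88 in shCDC73 cells (q = 9.05e-09). The part of MYC in the differences of the members was not tested.

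The knockdowns were then compared with shNTC within each treatment, averaging the hairpins against a target, so that 8 knockdown libraries stand against 4 shNTC libraries. Comparisons within a treatment share the shNTC libraries. Those in EtOH also share the EtOH shNTC libraries with the comparison of Dox with EtOH in shNTC cells above. Those in Dox share the Dox shNTC libraries with it. The values of all these comparisons are therefore given side by side and not as support for each other. In EtOH, 14 members rose and 3 fell in shCTR9 cells (beside 23.2% and 22.4% of all genes), and 11 rose and 5 fell in shCDC73 cells (24.4% and 24.6%). In Dox, 8 rose and 5 fell in shCTR9 cells (21.1% and 20.6%), and 7 rose and 6 fell in shCDC73 cells (22.2% and 22.7%). Medians were 0.28 and 0.19 in EtOH and 0.13 and 0.11 in Dox for shCTR9 and shCDC73, against 0.01 to 0.02 over all genes. Knockdown and shNTC libraries did not overlap for 9 members in shCTR9 and 6 in shCDC73 cells in EtOH (24.9% and 22.2% of all genes), and for 10 members in each in Dox (26% and 24.2%). By class, 7 of 8 polymerase II genes were called in either direction in shCTR9 cells in EtOH, 3 of 10 of polymerase III and 2 of 6 of polymerase I. Of the shared genes 2 of 2 of polymerases I and III and 3 of 4 of all 3 were called, beside 5729 of 12557 genes tested. In shCDC73 cells in EtOH 6 of 8 polymerase II genes were called, beside 6155 of 12557. In Dox 5 of 8 were called in each knockdown, beside 5246 in shCTR9 and 5641 in shCDC73 cells.

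**Figure D4:**
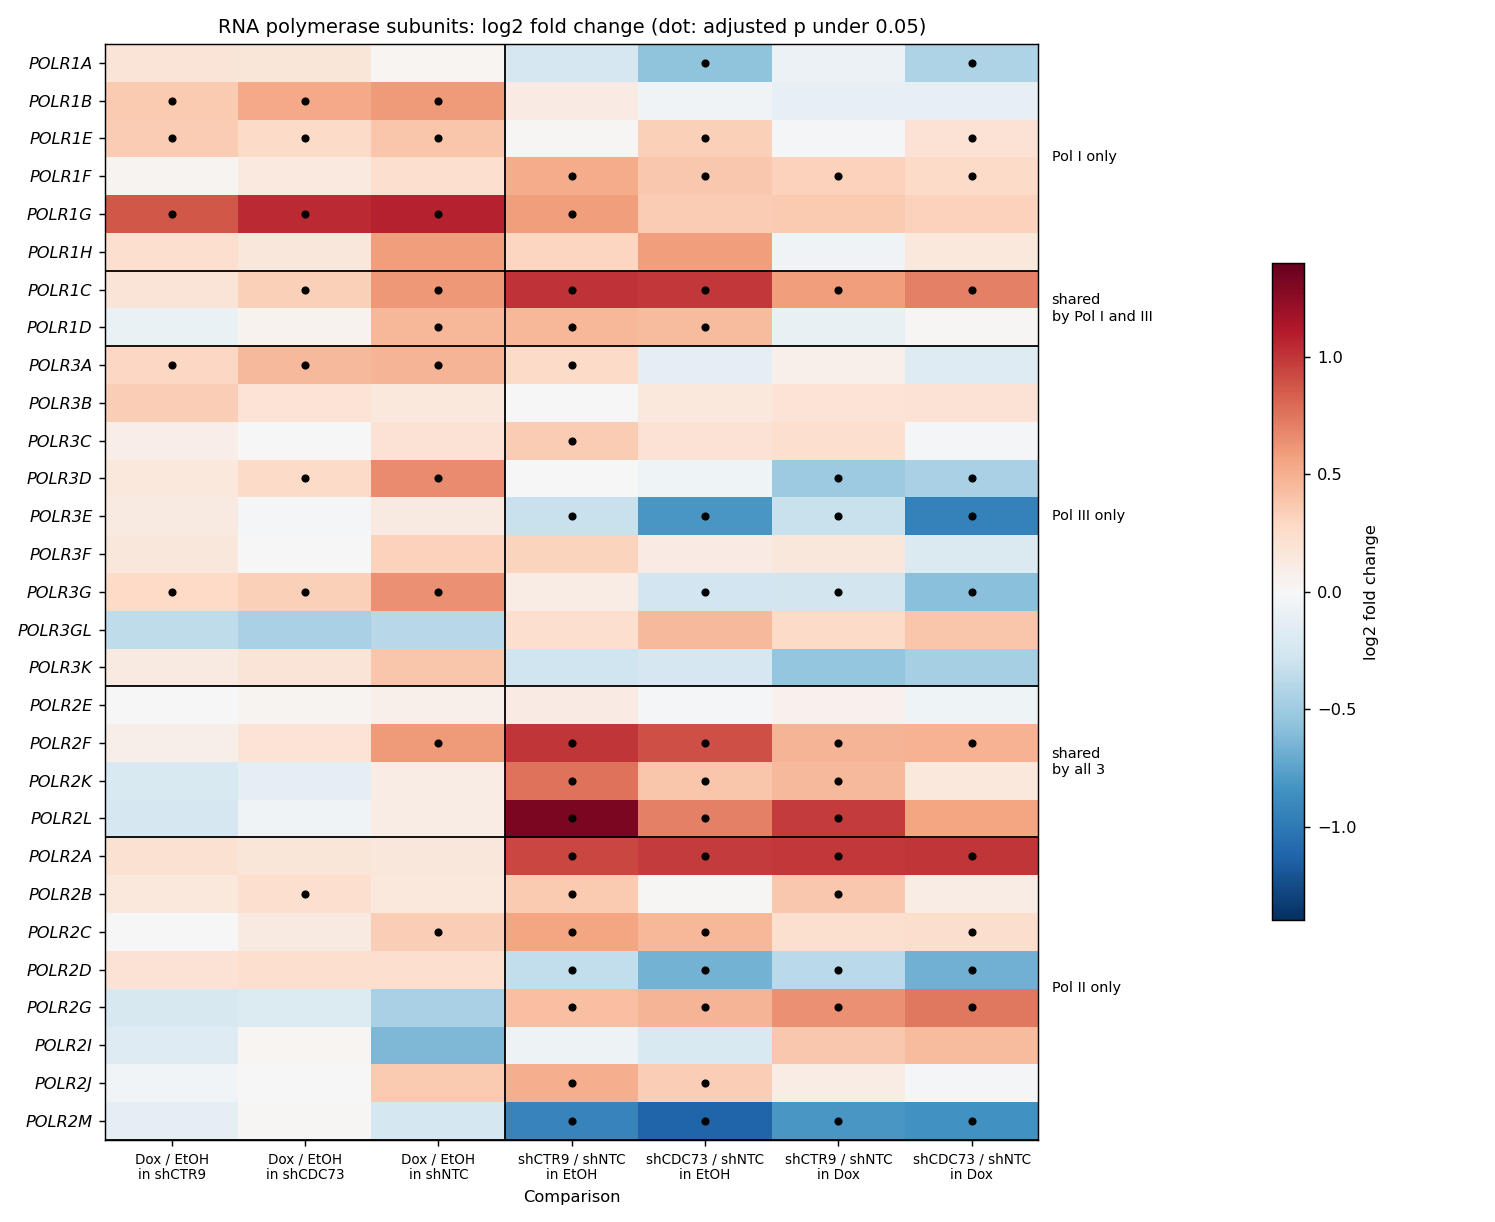
Log2 fold change of 29 of the 30 tested members, by class, for Dox over EtOH in shCTR9, shCDC73 and shNTC cells, and for shCTR9 and shCDC73 over shNTC in EtOH and in Dox, with dots where q is below 0.05. The Dox columns hold calls upward only (5, 8 and 10 members), and the knockdown columns hold calls both ways, with POLR2M and POLR2D lower and POLR2A and POLR1C higher in all 4.

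In polymerase II the largest subunit rose in both knockdowns and the second largest in shCTR9 cells. POLR2A, the largest subunit, which carries the repeated C-terminal domain, had 370, 551 and 653 CPM (lowest, median and highest of 8) in Dox shCTR9 and 424, 480 and 784 CPM in Dox shCDC73 cells, against 230, 295, 263 and 306 CPM in Dox shNTC cells. Every knockdown library lay above every shNTC library. Its change was 0.99 ± 0.22 in shCTR9 (q = 0.00047) and 1.00 ± 0.22 in shCDC73 cells (q = 0.000401). In EtOH it had 242, 491 and 628 CPM in shCTR9 and 185, 569 and 788 CPM in shCDC73 cells, against 171, 257, 279 and 270 CPM in shNTC cells, with changes of 0.94 ± 0.22 (q = 0.000806) and 0.98 ± 0.22 (q = 0.000422), and overlapped with shNTC. The overlapping values, 242 CPM in shCTR9 hairpin 3 replicate 1 and 185 and 215 CPM in shCDC73 hairpin 4 replicates 1 and 3, were those of the 3 libraries rich in short transcripts. Without those libraries the EtOH changes of POLR2A were 1.04 (q = 6.52e-07) and 1.20 (q = 9.1e-08). With all libraries, EtOH shCDC73 gave 1.56 for hairpin 3 alone (q = 3.44e-06) and 0.41 for hairpin 4 alone (q = 0.201). The hairpins were not tested against each other here. Replicates 1 and 3 of hairpin 4 are among the libraries rich in short transcripts, and its replicates 2 and 4 had 422 and 468 CPM.

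POLR2B had 661, 750 and 787 CPM in Dox shCTR9 cells, against 530, 544, 580 and 602 CPM in Dox shNTC cells, with no overlap. It rose in shCTR9 cells by 0.38 ± 0.09 in Dox (q = 0.000616) and 0.37 ± 0.09 in EtOH (q = 0.000713). In shCDC73 cells it gave 0.10 ± 0.09 in Dox (q = 0.364) and 0.02 ± 0.09 in EtOH (q = 0.838). The platform subunit POLR2C had 125, 143 and 186 CPM in EtOH shCTR9 and 115, 135 and 164 CPM in EtOH shCDC73 cells, all above the 88.1 to 106 CPM of EtOH shNTC cells (0.55 ± 0.10, q = 1.44e-05, and 0.46 ± 0.10, q = 0.000165). In Dox it gave 0.22 ± 0.10 in shCTR9 (q = 0.0696) and rose by 0.25 ± 0.10 in shCDC73 cells (q = 0.0316). The Dox shCDC73 call on POLR2C was lost without Dox shCDC73 hairpin 3 replicate 1 or 4, Dox hairpin 4 replicate 3 or 4, or Dox shNTC replicate 1, 2 or 4 (q of 0.0569 to 0.0711). Hairpin 4 alone did not give a call on POLR2C there (q = 0.109). Its partner POLR2J had 47.8, 62.5 and 74.1 CPM in EtOH shCTR9 and 39.3, 54.9 and 74.6 CPM in EtOH shCDC73 cells, against 46.4, 47.5, 46.7 and 36.1 CPM in EtOH shNTC cells. It rose in EtOH by 0.51 ± 0.13 in shCTR9 (q = 0.00117) and by 0.34 ± 0.13 in shCDC73 cells (q = 0.029), the second of which was lost without EtOH shCDC73 hairpin 3 replicate 2, hairpin 4 replicate 3 or EtOH shNTC replicate 4 (q of 0.067 to 0.131) and without the 3 libraries rich in short transcripts (q = 0.166). That shCDC73 call was also lost with hairpin 3 alone (q = 0.205).

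The stalk of polymerase II is a pair of POLR2D and POLR2G, and the pair moved in opposite directions. POLR2D had 86.1, 109 and 122 CPM in Dox shCTR9 and 65.7, 92 and 104 CPM in Dox shCDC73 cells, against 155, 135, 129 and 131 CPM in Dox shNTC cells. In EtOH it had 83.8, 89.6 and 105 CPM in shCTR9 and 53.9, 73.2 and 95.4 CPM in shCDC73 cells, against 125, 116, 110 and 118 CPM in shNTC cells. Knockdown and shNTC libraries did not overlap in either treatment, and POLR2D fell by 0.38 ± 0.09 and 0.67 ± 0.09 in Dox (q = 0.00072 and 4.96e-08) and by 0.34 ± 0.09 and 0.66 ± 0.09 in EtOH (q = 0.00229 and 9.83e-08). Each of the 4 hairpins alone gave a call downward in both treatments.

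POLR2G had 32.2, 37.8 and 44.3 CPM in Dox shCTR9 and 31.7, 40.8 and 51.8 CPM in Dox shCDC73 cells, against 28, 22.8, 27.1 and 19.7 CPM in Dox shNTC cells, and did not overlap (0.64 ± 0.18, q = 0.00372, and 0.74 ± 0.18, q = 0.000848). In EtOH it rose by 0.42 ± 0.17 in shCTR9 (q = 0.0352) and 0.48 ± 0.17 in shCDC73 cells (q = 0.0137), with overlap. The EtOH shCTR9 call was lost without EtOH shCTR9 hairpin 3 replicate 1, hairpin 5 replicate 1 or 4, or EtOH shNTC replicate 1 or 3 (q of 0.064 to 0.153), and the EtOH shCDC73 call without EtOH shNTC replicate 1 (q = 0.075). Without the 3 libraries rich in short transcripts both EtOH calls were lost (q = 0.069 and 0.151). Both were also lost with shCTR9 hairpin 3 alone (q = 0.135) and with shCDC73 hairpin 3 alone (q = 0.165), respectively.

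POLR2M, or Gdown1, which associates with polymerase II without being a core subunit, fell in all 4 comparisons. It had 21.7, 35.4 and 46.8 CPM in Dox shCTR9 and 21.8, 33.5 and 50.3 CPM in Dox shCDC73 cells, against 60.4, 61, 59.7 and 66.9 CPM in Dox shNTC cells. In EtOH it had 32.2, 36.7 and 48.6 CPM in shCTR9 and 23.4, 37.2 and 44.6 CPM in shCDC73 cells, against 71.8, 66.6, 76.9 and 80.5 CPM in shNTC cells. The groups lay apart each time. POLR2M changed by -0.82 ± 0.14 in shCTR9 (q = 3.7e-06) and -0.85 ± 0.14 in shCDC73 cells (q = 2.09e-06) in Dox, and by -0.94 ± 0.13 (q = 7.88e-08) and -1.12 ± 0.13 (q = 1.31e-09) in EtOH.

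**Figure D5:**
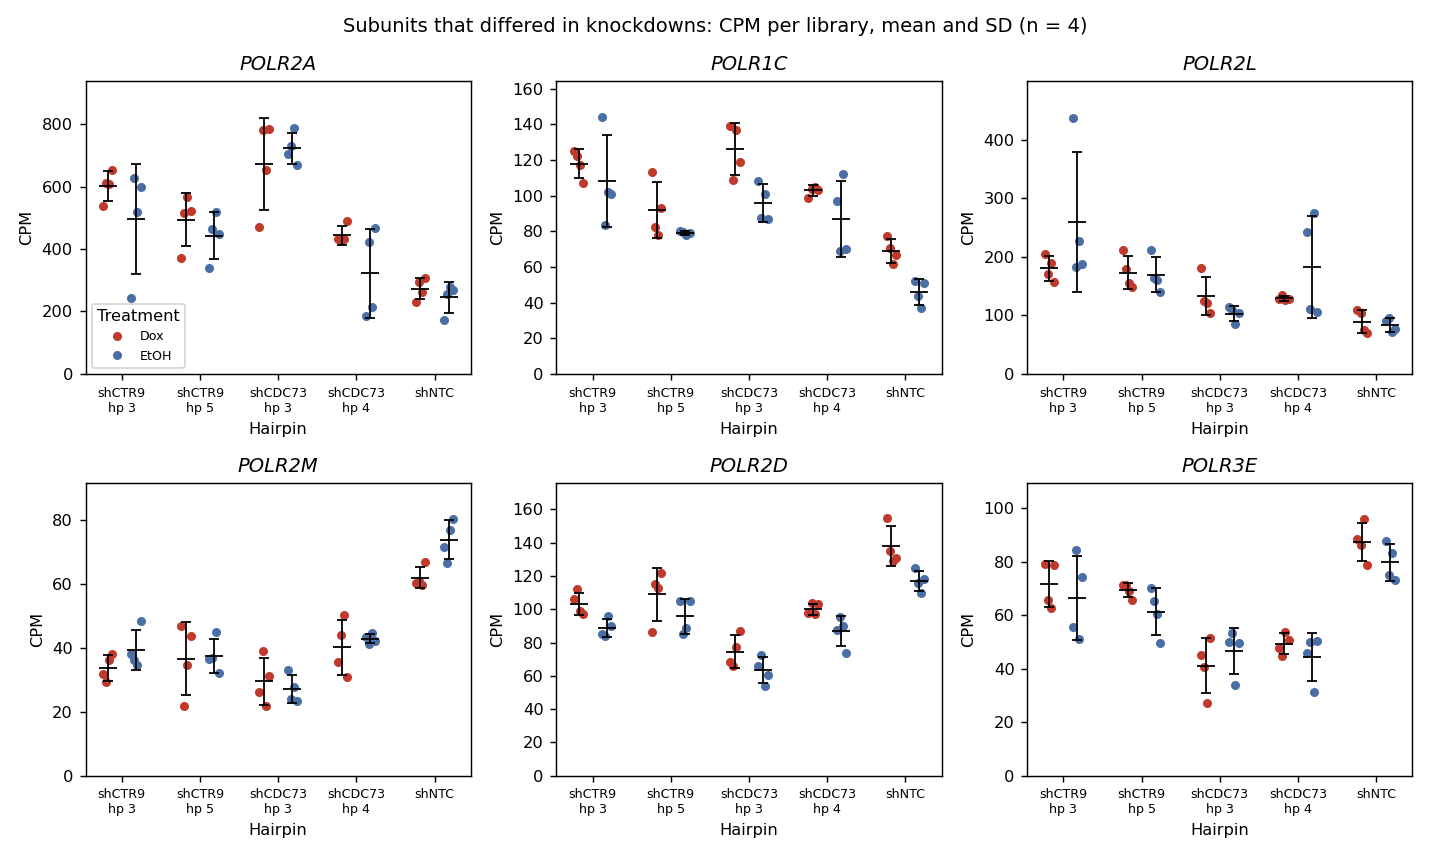
Level (CPM) of POLR2A, POLR1C, POLR2L, POLR2M, POLR2D and POLR3E in each library of the 10 groups. POLR2M and POLR2D lie lower in every knockdown library than in the shNTC libraries of the same treatment, POLR1C lies higher, and the 3 highest POLR2L values, 436, 274 and 243 CPM, come from the libraries rich in short transcripts.

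Of the subunits common to all 3 polymerases, POLR2F rose in all 4 comparisons, POLR2K and POLR2L rose in all but Dox shCDC73, and POLR2E gave log2 fold changes of -0.06 to 0.12, none of which passed. POLR2L had 148, 175 and 211 CPM in Dox shCTR9 cells, against 109, 104, 74.6 and 69.3 CPM in Dox shNTC cells, with no overlap (0.98 ± 0.24, q = 0.0014). In EtOH shCTR9 cells it had 140, 186 and 436 CPM, against 90.3, 95.7, 71.6 and 76.3 CPM in EtOH shNTC cells (1.32 ± 0.24, q = 4.09e-05), and this call held without the 3 libraries rich in short transcripts. In EtOH shCDC73 cells it had 84.7, 110 and 274 CPM (0.71 ± 0.24, q = 0.0167), and the q was 0.0679 without those libraries, 0.0611 without EtOH shNTC replicate 3 and 0.385 with hairpin 3 alone. In Dox shCDC73 cells it gave 0.55 ± 0.24 (q = 0.0654), and 0.54 without those libraries (q = 0.00194). Those libraries are not part of that comparison, so its q differed only through estimates shared by all groups.

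POLR2F had 72, 95.3 and 161 CPM in EtOH shCTR9 and 68.9, 90.1 and 144 CPM in EtOH shCDC73 cells, above the 42.2 to 58.7 CPM of EtOH shNTC cells (1.00 ± 0.18, q = 2.88e-05, and 0.90 ± 0.18, q = 0.000105). In Dox it rose by 0.48 ± 0.17 in shCTR9 (q = 0.0235) and 0.49 ± 0.17 in shCDC73 cells (q = 0.0191). Those calls were lost without Dox shNTC replicate 1 or 4 in both, and without Dox shCTR9 hairpin 5 replicate 1 in shCTR9 (q of 0.0541 to 0.1). They were also lost with shCTR9 hairpin 5 alone (q = 0.162) and with shCDC73 hairpin 4 alone (q = 0.36). POLR2K, a zinc-binding subunit, had 114, 130 and 155 CPM in Dox shCTR9 and 93, 105 and 135 CPM in Dox shCDC73 cells, against 99.2, 101, 90.5 and 95.2 CPM in Dox shNTC cells. In EtOH it had 112, 140 and 255 CPM in shCTR9 and 98.1, 108 and 190 CPM in shCDC73 cells, against 111, 89.6, 82.8 and 78 CPM in shNTC cells. POLR2K rose in shCTR9 cells by 0.76 ± 0.15 in EtOH (q = 7.54e-05) and 0.45 ± 0.15 in Dox (q = 0.0152), without overlap in either. In EtOH shCDC73 cells POLR2K rose by 0.39 ± 0.15 (q = 0.0307), a call lost without EtOH shCDC73 hairpin 4 replicate 1 or 3 or EtOH shNTC replicate 2, 3 or 4 (q of 0.0528 to 0.0978) and without the 3 libraries rich in short transcripts (q = 0.124). Hairpin 3 alone did not give that EtOH shCDC73 call (q = 0.258). With hairpin 5 alone the Dox shCTR9 call on POLR2K was lost (q = 0.0847), and in Dox shCDC73 cells POLR2K gave 0.15 ± 0.15 (q = 0.436).

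Of the platform shared by polymerases I and III, POLR1C rose in all 4 comparisons. It had 78.2, 110 and 125 CPM in Dox shCTR9 and 98.6, 107 and 139 CPM in Dox shCDC73 cells, against 61.6 to 77.6 CPM in Dox shNTC cells. In EtOH it had 77.7, 82.1 and 144 CPM in shCTR9 and 68.7, 92.3 and 112 CPM in shCDC73 cells, against 36.8 to 52.3 CPM in shNTC cells. No knockdown library overlapped with shNTC. POLR1C changed by 0.58 ± 0.12 in shCTR9 (q = 0.000155) and 0.71 ± 0.12 in shCDC73 cells (q = 6.08e-06) in Dox, and by 1.01 ± 0.13 (q = 2.09e-08) and 0.99 ± 0.13 (q = 2.66e-08) in EtOH. POLR1D had 86.6, 108 and 165 CPM in EtOH shCTR9 and 85.7, 100 and 149 CPM in EtOH shCDC73 cells, against 92, 83.5, 72.9 and 72.1 CPM in EtOH shNTC cells, with overlap. It rose in EtOH by 0.46 ± 0.13 (q = 0.00287) and 0.44 ± 0.13 (q = 0.00419), and in Dox it gave -0.10 ± 0.12 and 0.02 ± 0.12, which did not pass. The EtOH calls on POLR1D were lost with shCTR9 hairpin 5 alone (q = 0.121) and, in shCDC73, without replicate 3 of every group (q = 0.0786).

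Among the genes of polymerase I only, POLR1F, a stalk subunit, had 185, 211 and 260 CPM in Dox shCTR9 and 181, 215 and 229 CPM in Dox shCDC73 cells, against 178, 170, 177 and 172 CPM in Dox shNTC cells, all apart (0.32 ± 0.10, q = 0.00661, and 0.27 ± 0.10, q = 0.0182). In EtOH it rose by 0.52 ± 0.10 in shCTR9 (q = 2.58e-05) and 0.38 ± 0.10 in shCDC73 cells (q = 0.00135). Its Dox calls were lost with shCTR9 hairpin 5 alone (q = 0.251), with shCDC73 hairpin 4 alone (q = 0.136) and, in shCDC73, with no filter on low counts (q = 0.0776). POLR1E rose in shCDC73 cells, by 0.33 ± 0.08 in EtOH (q = 0.000582) and 0.20 ± 0.08 in Dox (q = 0.0304), and the Dox call was lost without Dox shCDC73 hairpin 3 replicate 4, hairpin 4 replicate 4 or Dox shNTC replicate 2 or 4 (q of 0.0519 to 0.11). That Dox call was also lost with hairpin 4 alone (q = 0.179) and with no filter on low counts (q = 0.264). POLR1G rose in EtOH shCTR9 cells by 0.58 ± 0.23 (q = 0.0431), a call lost without EtOH shCTR9 hairpin 3 replicate 3 or 4, hairpin 5 replicate 1 or 2 or any EtOH shNTC replicate (q of 0.0548 to 0.121). That call was also lost with hairpin 5 alone (q = 0.179), under DESeq2 (q = 0.0816) and with no filter on low counts (q = 0.139). The largest subunit POLR1A had 175, 173, 185 and 171 CPM in EtOH shCDC73 hairpin 3 and 109, 244, 117 and 214 CPM in hairpin 4, against 246, 243, 263 and 279 CPM in EtOH shNTC cells. The lowest values, 109 and 117 CPM, were those of hairpin 4 replicates 1 and 3, rich in short transcripts. POLR1A fell in shCDC73 cells, by 0.56 ± 0.17 in EtOH (q = 0.00586) and by 0.43 ± 0.17 in Dox (q = 0.0377). The Dox call was lost without Dox shCDC73 hairpin 3 replicate 1, hairpin 4 replicate 1 or 3 or Dox shNTC replicate 2, 3 or 4 (q of 0.0574 to 0.101), with hairpin 4 alone (q = 0.34) and with no filter on low counts (q = 0.0581), and the EtOH call without replicate 3 of every group (q = 0.0649). Without the 3 libraries rich in short transcripts the changes were -0.37 in EtOH (q = 0.00743) and -0.44 in Dox (q = 0.000969). The Dox comparison does not hold those libraries, so its q differed only through estimates shared by all groups.

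In polymerase III 3 of 10 genes fell and 0 rose in Dox in each knockdown, beside 20.6% of all genes that fell and 21.1% that rose in shCTR9, and 22.7% and 22.2% in shCDC73 cells. POLR3E, a TFIIF-like subunit, had 27.2, 46.4 and 53.8 CPM in Dox shCDC73 cells, against 88.4, 86.3, 96.1 and 78.7 CPM in Dox shNTC cells, and 31.1, 49.6 and 53.3 CPM in EtOH shCDC73 cells, against 87.8, 75, 83.4 and 73 CPM in EtOH shNTC cells. The groups lay apart in both treatments, and POLR3E fell by 0.95 ± 0.13 in Dox (q = 4.03e-08) and by 0.81 ± 0.13 in EtOH (q = 9.68e-07). In shCTR9 cells it fell by 0.31 ± 0.12 in Dox (q = 0.0404) and by 0.31 ± 0.13 in EtOH (q = 0.0368). In shCTR9 the Dox call was lost without Dox shCTR9 hairpin 3 replicate 2 or 3, hairpin 5 replicate 4 or Dox shNTC replicate 1, 2 or 3 (q of 0.0589 to 0.123). The EtOH call was lost without EtOH shCTR9 hairpin 3 replicate 1 or 3, hairpin 5 replicate 4 or EtOH shNTC replicate 1 or 3 (q of 0.0585 to 0.103). Hairpin 3 alone gave neither call (q = 0.112 in Dox and 0.162 in EtOH). The Dox call was also lost with hairpin 5 alone (q = 0.0771).

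POLR3D, the partner of POLR3E, fell in Dox by 0.51 ± 0.09 in shCTR9 (q = 8.81e-06) and by 0.45 ± 0.09 in shCDC73 cells (q = 4.64e-05). It had 99.8, 120 and 139 CPM in Dox shCTR9 and 109, 117 and 154 CPM in Dox shCDC73 cells, below the 157 to 180 CPM of Dox shNTC cells. In EtOH it gave 0.00 ± 0.10 and -0.06 ± 0.10. POLR3G fell in Dox shCDC73 cells by 0.58 ± 0.10 (q = 7.69e-06), with 72.3, 87.5 and 107 CPM, against 115, 131, 123 and 153 CPM in Dox shNTC cells and no overlap. In Dox shCTR9 cells it fell by 0.26 ± 0.10 (q = 0.0336), a call lost without Dox shCTR9 hairpin 3 replicate 2 or 3, hairpin 5 replicate 2 or Dox shNTC replicate 2 or 4 (q of 0.0606 to 0.207). Hairpin 5 alone did not give a call on POLR3G there (q = 0.229). In EtOH shCDC73 cells it fell by 0.27 ± 0.11 (q = 0.0393), and without EtOH shCDC73 hairpin 3 replicate 4, hairpin 4 replicate 2 or 4, or EtOH shNTC replicate 1, 3 or 4 it did not pass (q of 0.0623 to 0.103). It also did not pass with hairpin 4 alone (q = 0.919) or without replicate 4 of every group (q = 0.266). The same held under DESeq2 (q = 0.0562), with no filter on low counts (q = 0.0531) and with only the groups compared (q = 0.0799).

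POLR3A rose in EtOH shCTR9 cells by 0.27 ± 0.09 (q = 0.0105), a call lost without EtOH shNTC replicate 2 (q = 0.0639) and with hairpin 5 alone (q = 0.0933). POLR3C, an initiation subunit that resembles a part of TFIIE, had 58.2, 79.7 and 88.2 CPM in EtOH shCTR9 cells, against 69.2, 60.5, 55.9 and 54.5 CPM in EtOH shNTC cells. POLR3C rose there by 0.35 ± 0.12 (q = 0.0164), and the call was lost without EtOH shNTC replicate 3 or 4 (q = 0.0668 and 0.0688) and with hairpin 3 alone (q = 0.073). POLR3K, the short RNA-cleavage subunit, had 24.7, 30.3 and 41 CPM in Dox shCTR9 and 20.4, 32.8 and 52.6 CPM in Dox shCDC73 cells, against 48.2, 52.1, 41.1 and 38.6 CPM in Dox shNTC cells. Its log2 fold changes of -0.54 ± 0.26 (q = 0.0986) and -0.46 ± 0.26 (q = 0.16) did not pass. Without the 3 libraries rich in short transcripts they were -0.55 (q = 0.00202) and -0.47 (q = 0.00844), and in EtOH they were -0.48 (q = 0.0187) in shCTR9 and -0.72 (q = 0.000832) in shCDC73 cells. The Dox comparisons do not hold those libraries, so their q differed only through estimates shared by all groups.

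Genes that work with these enzymes were counted in the same comparisons. With Dox in shNTC cells 2 of 6 factors of polymerase I, 4 of 29 general factors of polymerase II, 3 of 15 factors of polymerase III and 3 of 14 assembly and import factors rose, and 0 fell in each list, beside 8.49% of all genes that rose and 8.93% that fell. The list medians were 0.30, 0.14, 0.27 and 0.28, against -0.01 over all genes. SNAPC4, of the complex at small nuclear RNA promoters, rose with Dox by 0.61 ± 0.07 in shCTR9 (q = 7.48e-10), by 0.60 ± 0.07 in shCDC73 (q = 1.34e-09) and by 0.78 ± 0.10 in shNTC cells (q = 7.45e-08). TAF1C, a subunit of the selectivity factor of polymerase I, rose by 0.47 ± 0.13 in shNTC cells (q = 0.00732), and URI1, a prefoldin-like assembly factor, by 0.51 ± 0.12 (q = 0.00157). The mitochondrial polymerase POLRMT rose with Dox by 0.22 ± 0.08 in shCTR9 (q = 0.0395) and 0.26 ± 0.08 in shCDC73 cells (q = 0.0132), and gave 0.13 ± 0.11 in shNTC cells (q = 0.46). The POLRMT call in shCTR9 cells was lost without 9 of the 16 libraries left out singly (q of 0.0589 to 0.0837), and that in shCDC73 cells without Dox hairpin 4 replicate 1 (q = 0.0579).

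Against shNTC in EtOH, the polymerase I list had 2 up and 0 down in shCTR9 and 2 up and 1 down in shCDC73 cells, the polymerase III list 5 up and 2 down and 5 up and 4 down, and the assembly list 4 up and 1 down and 3 up and 2 down. The general factors of polymerase II moved both ways, with 10 up and 8 down of 29 in shCTR9 and 11 up and 10 down in shCDC73 cells. The shares of all genes were 23.2% up and 22.4% down in shCTR9, and 24.4% up and 24.6% down in shCDC73 cells. TAF7, a TFIID subunit, rose by 1.08 ± 0.10 (q = 6.64e-13) and 0.86 ± 0.10 (q = 2.87e-10), while GTF2H3, of TFIIH, fell by 1.00 ± 0.13 (q = 1.18e-08) and 0.88 ± 0.13 (q = 1.3e-07). In Dox, for shCTR9 and shCDC73, the polymerase I list had 1 up and 0 down and 1 up and 1 down, the general factors 4 up and 7 down and 6 up and 8 down, the polymerase III list 4 up and 3 down and 2 up and 4 down, and the assembly list 2 up and 4 down and 1 up and 5 down, beside 21.1% up and 20.6% down, and 22.2% up and 22.7% down, of all genes. RUVBL1, an ATPase of the co-chaperone that helps to assemble polymerases, fell in all 4 comparisons, by 1.21 ± 0.09 in Dox shCTR9 (q = 8.67e-16), 0.85 ± 0.09 in Dox shCDC73 (q = 3.78e-11), 0.98 ± 0.09 in EtOH shCTR9 (q = 1.58e-12) and 0.75 ± 0.09 in EtOH shCDC73 cells (q = 1.42e-09). GTF3A, the 5S RNA gene factor of polymerase III, fell in Dox by 0.83 ± 0.12 in shCTR9 (q = 1.77e-07) and 0.68 ± 0.12 in shCDC73 cells (q = 5.23e-06).

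Some members share sequence or exons with other genes, and their values are uncertain to that extent. In GENCODE 29, 43.5% of the exon bases of POLR1G lie opposite ERCC1, 22.5% of those of POLR2L lie opposite CD151, 32.9% of those of POLR2I lie opposite TBCB and 24.5% of those of POLR1H lie opposite ZNRD1ASP. The strand setting of the counting is not given in the sources used here, so reads from such partners cannot be told apart. ERCC1 gave -0.11 ± 0.19 for Dox in shNTC cells (q = 0.751), -0.29 ± 0.13 in shCTR9 (q = 0.102) and -0.22 ± 0.13 in shCDC73 cells (q = 0.242), the opposite sign to POLR1G. In EtOH shCTR9 cells ERCC1 rose by 0.47 ± 0.16 (q = 0.0112), as POLR1G did. CD151 gave -0.12 ± 0.12 in EtOH shCTR9 cells (q = 0.455), where POLR2L rose. POLR2M shares 21.1% of its exon bases with GCOM1 on the same strand, which is listed at 0, and POLR2J has near-identical copies, of which POLR2J2 and POLR2J3 are listed at 0 and POLR2J4, which is not protein-coding, had 2251 reads over all libraries.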

How the data were processed

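Total RNA of 40 libraries, prepared with a library kit of NEB per the labels' protocols, was analysed as read counts per gene, which the authors deposited as 1 table per library with no scaling that the values show. Per the submitters' processing notes reads were handled with HISAT2, Bowtie and edgeR, on build hg19. Versions, each tool's role, the counting program, its annotation and strand setting were not given in the sources used here. Each table lists 63545 entries, of which 63152 are Ensembl genes. Symbols, transcript lengths and exon overlaps were taken by Ensembl id from GENCODE 29, with current symbols from a table of gene names, and promoters from RefSeq on GRCh38.p14.

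The software was edgeR 4.0.16 and limma 3.58.1, run in R 4.3.3. Filtering with filterByExpr by group (minimum count 10, minimum total 15) kept 12557 genes, holding 98.65% of reads, and TMM scaling gave factors of 0.9226 to 1.029. A robust quasi-likelihood model with 1 mean per group was fitted to all 40 libraries, with a common dispersion of 0.0129 and 30 residual degrees of freedom. Contrasts of a knockdown average its 2 hairpins, tests are two-sided, and p-values were adjusted by Benjamini-Hochberg over all genes tested at 0.05. The size of a log2 fold change over the root of its F gave the standard error. CPM rest on TMM-scaled sizes, with SD among a group's libraries. Floors of 3 counts cover counting error only. The chi-square per degree of freedom between replicates of a group was 1.07 to 10.3, and no libraries were merged.

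The members, gene lists, tests and alternatives were chosen with earlier results of these data known. Any member could be named, except 1 tested member that is counted with the others but not reported individually here. Values in every library were given for members called for Dox in shNTC cells; against shNTC, the 8 libraries of a knockdown are mostly given by their lowest, median and highest, and some calls by their change alone, and of each list the genes named are among the 3 with the smallest p per comparison. Other genes are named for checks or because they overlap a member. A simulation of the comparison of Dox with EtOH in shNTC cells (12557 genes) was used to test the procedure, in which 32% of genes changed 1.5-fold and 74% of genes changed 2-fold were recovered and 11 of 12254 unchanged genes were called. Alternatives were DESeq2 size factors, library totals, no filter, the test of DESeq2 1.42.0, a replicate block, the groups compared alone, the transcript-length slope as a covariate, single hairpins, and leaving out the 3 libraries rich in short transcripts, each replicate number or each library. Figures were drawn with matplotlib 3.10.9 in Python 3.11.15.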

Additional observations from a re-analysis of the deposited data

Results flagged for a closer look

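Among 290 sets of 4 libraries (29 members in 10 groups), 14 held a library whose value stood apart from the other 3 by a gap that was large for the range of the group. Chance flags about 1 in 20 such sets, which is 14.5, so there were about as many as chance gives. POLR2I had 13 CPM in EtOH shCTR9 hairpin 3 replicate 1, against 2.04 to 2.65 CPM in the other 3 libraries, and POLR2B had 435 CPM there, against 675 to 718 CPM. POLR2J had 66.7 CPM in the same library, which is 1 of the 3 rich in short transcripts, against 62.3 to 62.8 CPM.

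POLR2J also stood apart in shNTC cells, with 74.1 CPM in Dox replicate 2 against 49.4 to 52.7 CPM, and 36.1 CPM in EtOH replicate 4 against 46.4 to 47.5 CPM. POLR1A had 223 CPM in Dox shNTC replicate 1 against 275 to 282 CPM, and POLR3G 75 CPM in EtOH shNTC replicate 2 against 85.4 to 87.2 CPM. In shCTR9 cells POLR1E had 206 CPM in EtOH hairpin 3 replicate 4 against 202 CPM in each of the other 3, POLR3F 38.9 CPM in the same library against 30.4 to 31.7 CPM, POLR3C 61.3 CPM in EtOH hairpin 5 replicate 2 against 83.4 to 87.4 CPM, and POLR2E 188 CPM in Dox hairpin 5 replicate 4 against 159 to 162 CPM. In shCDC73 cells POLR2A had 490 CPM in Dox hairpin 4 replicate 4 against 424 to 431 CPM, POLR3A 149 CPM in Dox hairpin 4 replicate 1 against 164 to 166 CPM, and POLR3C 87.4 CPM in Dox hairpin 3 replicate 2 against 61 to 64.1 CPM.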

How the results depend on the processing

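Of 82 calls on members in the 7 comparisons of treatments and knockdowns, 46 held in every alternative and 22 were lost without some single library. Over 2384 values of single genes under alternatives, 2099 kept direction and call, 285 lost the call and 0 reversed. Counts of members called moved by over 1.5 times as follows, and the causes were not tested. With the transcript-length slope as a covariate they were 13 for Dox in shCTR9 and 13 in shCDC73, 10 in shCTR9 hairpin 3, 11 in shCDC73 hairpin 3, 12 in shCDC73 hairpin 4, and 2 for the difference of response in each knockdown. All genes called also moved then, from 2304 to 3644 for Dox in shCTR9 and from 2202 to 3523 in shCDC73. For the differences of response they were 3.62% in shCTR9 and 2.91% in shCDC73. Shares of all genes under the other settings are not given here, so these counts are not results about the members in particular. With single hairpins, Dox gave 3 in shCTR9 hairpin 3, 3 in hairpin 5, 2 in shCDC73 hairpin 3 and 5 in hairpin 4, and knockdowns in Dox gave 8 with shCTR9 hairpin 5 and 8 with shCDC73 hairpin 4. With only the groups compared they were 0 in shCTR9 hairpin 3, 4 in shCDC73 hairpin 3, 2 in shCDC73 hairpin 4 and 1 for the shCTR9 difference of response. That difference also gave 1 under DESeq2, 1 with the replicate block and 1 without the 3 libraries rich in short transcripts. Without those libraries, which are not part of that comparison, shCDC73 hairpin 3 gave 9, with library totals it gave 1, and shCDC73 hairpin 4 without a filter gave 3. Leaving out replicates, the lowest and highest counts were 4 and 6 for Dox in shCTR9, 5 and 9 in shCDC73, 7 and 9 in shNTC, 12 and 17 for shCTR9 in EtOH, 9 and 16 for shCDC73 in EtOH, 10 and 13 for shCTR9 in Dox, 9 and 13 for shCDC73 in Dox, 0 and 1 for the shCTR9 difference, 0 and 4 in shCTR9 hairpin 3, 0 and 4 in hairpin 5, 1 and 3 in shCDC73 hairpin 3, and 3 and 5 in hairpin 4. The replicate block gave 10 members for Dox in shNTC, lost 0 member calls and gained 3, POLR2C (adjusted p = 0.0336) for shCTR9 in Dox, POLR2L (adjusted p = 0.0187) for shCDC73 in Dox and POLR3D (adjusted p = 0.0242) for the shCTR9 difference. Libraries with the same number did not deviate together in every pair (lowest r -0.0379, -0.0165, -0.138 and -0.114 for numbers 1 to 4), though 28 of 40 correlated best with their own number, a hint from the data. Depth limits POLR1G, POLR1H, POLR2I, POLR3B and POLR3GL most, and in simulation 32% of 1.5-fold changes were recovered.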
